A study of Mus musculus with 16 samples.

Results

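Csgalnact1, Synpr, Piezo2, Kcna4, Ltbp1 and Sytl2 are mouse loci at which many regions of open chromatin became more accessible when Smad4 was restored in pancreatic ductal adenocarcinoma (PDAC) cells. They were selected on that readout, so their response to restoration is described below and is not tested. A peak was assigned to a locus when the nearest start site of a protein-coding gene (GENCODE vM21 basic annotation) lay within 100 kb of its midpoint and belonged to that gene. Of 136630 nuclear peaks in the table, 129 belonged to the 6 loci, which are 6 of the 17794 genes with an assigned peak. Ltbp1 held 49 of these peaks, Piezo2 25, Kcna4 17, Csgalnact1 15, Sytl2 13 and Synpr 10.

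Chromatin accessibility was measured by ATAC-seq, in which a transposase cuts and tags open DNA, in tumor cells sorted for the mKate2 reporter. The cells came from lines of primary KC-shSmad4 tumors, which carry Ptf1aCre (active in pancreatic progenitors), a Rosa26 allele with rtTA3 and mKate2, and a doxycycline (Dox)-inducible short hairpin RNA against Smad4 at Col1a1, all of which every group shares. They were transplanted into female athymic nude mice (Foxn1 nu, 6 to 8 weeks old) fed Dox, and grew in the pancreas (Panc) after orthotopic injection, the liver (Liv) after injection into the spleen, or the lungs (Lung) after tail-vein injection. Dox kept Smad4 silenced in the OFF groups. In the ON groups Dox was withdrawn from pancreatic tumors at 4 weeks, liver metastases at 5 weeks and lung metastases at 6 weeks, and cells were taken 14 days later (column names of the lung samples give day 15). There were 3 mice in each of Panc_OFF, Panc_ON, Lung_OFF and Lung_ON and 2 in each of Liv_OFF and Liv_ON. Organ, injection route and growth time therefore cannot be told apart, and the labels used here do not say which cell line gave which sample.

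SMAD4 is the shared partner of the receptor-activated SMAD proteins that carry TGF-beta and BMP signals to the nucleus, and its loss is a frequent event in PDAC. The 6 genes have different roles. Csgalnact1 encodes an enzyme that starts and extends chondroitin sulfate chains on proteoglycans. Ltbp1 encodes a matrix protein that binds latent TGF-beta and anchors it to fibrillin microfibrils. Piezo2 and Kcna4 encode ion channels of the plasma membrane, a mechanically gated cation channel and the voltage-gated potassium channel Kv1.4. Synpr (synaptoporin) and Sytl2 (synaptotagmin-like 2, an effector of RAB27) encode proteins of secretory vesicles.

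Reads in nuclear peaks numbered between 22495044 and 37510981 per sample, and the median peak held 36 to 76 reads. Lung_OFF replicate 2 stood apart from the other Lung_OFF samples at Piezo2 and Csgalnact1, and results that it decides are given without it. All 6 epithelial markers (Krt8, Krt18, Krt19, Epcam, Cdh1 and Cldn4) had a peak within 1000 bp of a start site, and their summed normalized count was highest in the liver, at 42853 to 45452 in Liv_OFF, 18521 to 27801 in Lung_OFF and 16704 to 19445 in Panc_OFF. Of 5 hepatocyte markers only Ttr had such a peak (164 to 231 in Liv_OFF and 52.5 to 96.7 in the other OFF samples) and Alb had none. Of 5 lung epithelium markers only Ager had one (30.4 to 47.4 in Lung_OFF and 15.3 to 59.9 in the other OFF samples) and Sftpc had none. Acinar markers (2 of 5) summed to 481 to 574 in Liv_OFF, 346 to 352 in Lung_OFF and 325 to 384 in Panc_OFF. The 2 acinar markers went opposite ways. Among the OFF groups, Cela1 was highest in Liv_OFF (mean 445.6, against 132.3 in Lung_OFF). Prss2 was lowest there (mean 81.7, against 217.2 in Lung_OFF). In bulk samples, fewer cells with an open site and less opening per cell cannot be told apart. The p-values rest on the spread between mice within groups, pooled over all 6 groups and drawn toward that of other peaks. The 2 mice of each liver group give only a part of it.

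The following windows show the center of the peak with the largest rise on restoration, averaged over organs, at 4 of the loci. They are 300 bases long, from the RefSeq sequence of GRCm38.p6 (mm10), and let a reader see which consensus motifs the responding sites hold. Capitals mark matches on either strand to CAGACA (a SMAD site), TGANTCA (AP-1) and GGAATG (TEAD). The Kcna4 window holds an AP-1 and a TEAD match, the Csgalnact1 window a SMAD and a TEAD match, and the Synpr and Sytl2 windows no match to any of the 8 motifs searched.
Csgalnact1, chr8:68727699-68727998, plus strand: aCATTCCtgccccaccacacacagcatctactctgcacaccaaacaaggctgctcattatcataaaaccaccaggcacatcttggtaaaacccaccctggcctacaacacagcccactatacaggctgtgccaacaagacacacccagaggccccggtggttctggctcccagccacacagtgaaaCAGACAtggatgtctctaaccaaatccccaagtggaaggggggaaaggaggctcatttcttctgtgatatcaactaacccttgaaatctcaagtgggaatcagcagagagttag
Kcna4, chr2:107312183-107312482, plus strand: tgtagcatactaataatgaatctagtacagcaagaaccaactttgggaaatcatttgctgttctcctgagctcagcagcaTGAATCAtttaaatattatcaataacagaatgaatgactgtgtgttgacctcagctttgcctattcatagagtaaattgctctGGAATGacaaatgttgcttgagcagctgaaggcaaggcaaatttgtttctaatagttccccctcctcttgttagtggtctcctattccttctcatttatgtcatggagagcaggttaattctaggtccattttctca
Synpr, chr14:13486755-13487054, plus strand: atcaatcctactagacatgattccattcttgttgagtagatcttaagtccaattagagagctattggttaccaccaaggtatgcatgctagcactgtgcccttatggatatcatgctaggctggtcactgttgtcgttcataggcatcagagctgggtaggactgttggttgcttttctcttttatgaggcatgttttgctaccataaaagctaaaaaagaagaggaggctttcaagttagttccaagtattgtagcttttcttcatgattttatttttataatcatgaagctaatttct
Sytl2, chr7:90307808-90308107, plus strand: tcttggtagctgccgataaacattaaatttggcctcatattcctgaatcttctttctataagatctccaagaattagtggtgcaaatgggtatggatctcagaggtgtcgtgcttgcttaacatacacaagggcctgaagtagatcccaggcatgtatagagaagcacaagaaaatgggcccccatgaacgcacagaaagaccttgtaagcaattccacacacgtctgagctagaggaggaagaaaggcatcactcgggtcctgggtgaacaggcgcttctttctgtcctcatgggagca

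The values that selected the loci are given first. With a peak counted as gained when its log2 fold change (ON against OFF, averaged over organs) was at least 0.58 and its limma adjusted p at most 0.1, 54 of the 129 peaks were gained and none was lost, where 3.61% of all peaks were gained. By the same limits in the falling direction, 4105 of all 136630 peaks were lost. The loci were chosen for rising, so the lack of lost peaks among their 129 is no separate result. Gained peaks numbered 13 at Ltbp1, 12 at Piezo2, 10 at Csgalnact1, 7 at Kcna4 and 6 each at Synpr and Sytl2. No other gene had more than Ltbp1, 32 genes had 6 or more, 28 had 5, and 15617 had none. Just inside the rule stood a Kcna4 peak with a log2 fold change of 0.59, and just outside it an Ltbp1 peak with 0.87 but an adjusted p of 0.116. On distance, the last peak inside was a Piezo2 peak at 99953 bp (log2 fold change 1.24), and the first outside was a peak at 100037 bp from Csgalnact1 (1.16).

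With Smad4 off, the chromatin of Csgalnact1, Piezo2, Kcna4 and Synpr was less accessible in liver metastases than in the pancreas or lungs. Summed over its peaks, each of these loci had a normalized count 4.05 to 10.9 times higher in Lung_OFF than in Liv_OFF, and 4.08 to 8.1 times higher in Panc_OFF. The sums of Ltbp1 differed less (ratios of 1.12 and 1.01), with single peaks that differed in both directions. Sytl2 lay between these patterns (1.23 and 1.41). Sums are descriptions, and the tests below are of single peaks.

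**Figure D1:**
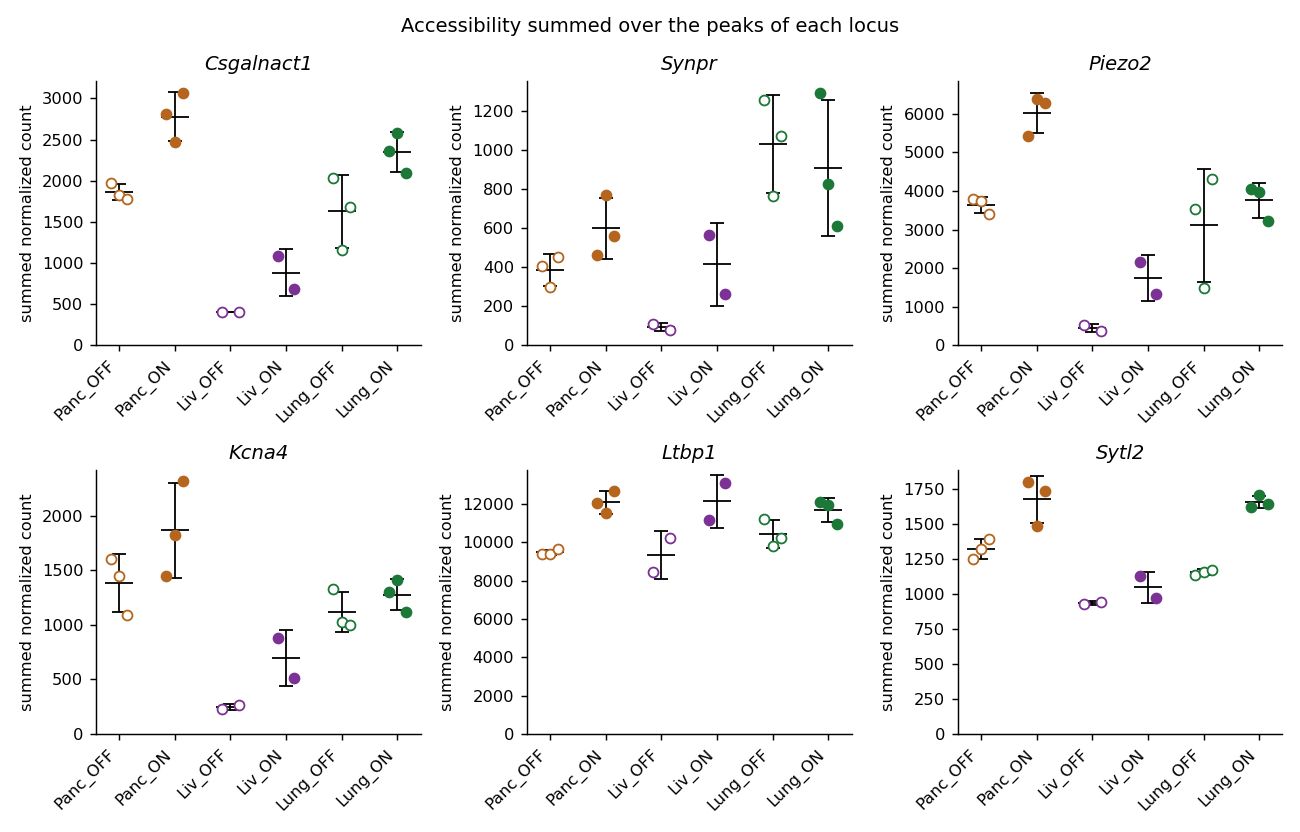
Normalized count summed over the peaks of each locus (vertical axis, from 0) in each of 16 samples, grouped by organ and Smad4 state. Open points are OFF samples, filled points ON samples, the long bar is the group mean and the error bar its SD. At Csgalnact1, Piezo2, Kcna4 and Synpr both Liv_OFF samples lie below every sample of any other group.

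Peaks were compared between organs within a Smad4 state, a contrast other than the one that selected the loci, though the samples are shared with it. A peak that reads low in OFF samples is favored by a choice for rising, so that the organ comparisons with Smad4 off are not fully separate from the choice. A split by gain describes this but cannot measure it, since the peaks not gained lie in the same chosen loci. In Liv_OFF against Lung_OFF 48 of the 54 gained peaks were called lower (88.9%, median log2 fold change −2.05), against 32 of the 75 not gained (42.7%, median −0.81). Against Panc_OFF it was 48 of 54 and 46 of 75 (61.3%). Between Liv_OFF and Lung_OFF, 80 of the 129 peaks were called lower in the liver (62.0%), against 26.8% of all peaks. Only 7 were called higher (5.43%), against 22.9% of all peaks. The median log2 fold change was −1.42 over the 129 peaks and 0.00 over all peaks. Both Liv_OFF samples were below all 3 Lung_OFF samples at 84 of the peaks and above them at 15, where 31.0% and 34.9% of all peaks did so. The lower calls numbered 61 to 83 when any single sample was left out. At each locus the peak of smallest p between Liv_OFF and Lung_OFF, named below, was itself gained, as was the Piezo2 promoter. Their values describe them and are no separate support.

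Against Panc_OFF the liver was lower still. In Liv_OFF, 94 of the 129 peaks were called lower than in Panc_OFF (72.9%, all peaks 32.3%) and 12 were called higher (9.30%, all peaks 26.2%). Both Liv_OFF samples were below all 3 Panc_OFF samples at 101 of the peaks and above them at 14, beside 39.4% and 37.7% of all peaks. Lung_OFF and Panc_OFF were more alike, with 12 peaks called higher in the lungs (9.30%, all peaks 6.59%) and 21 lower (16.3%, all peaks 10.7%). Of these 12, Synpr held 8 and Ltbp1 4. The total of 33 was 20 without Panc_OFF replicate 2 and 21 without Panc_OFF replicate 3, and without Lung_OFF replicate 2 the calls were 15 higher and 14 lower.

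**Figure D2:**
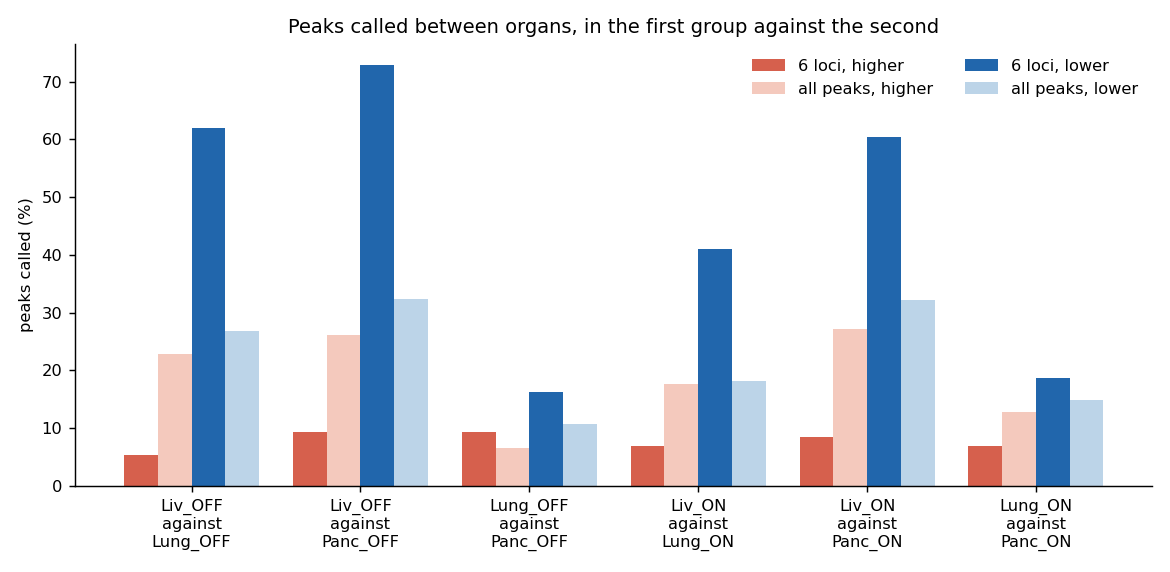
Share of peaks called higher (red) or lower (blue) in the first group named than in the second, in percent, for the 129 peaks of the 6 loci (dark bars) and all 136630 peaks (pale bars). In the 4 comparisons with the liver the loci had a larger share of lower calls and a smaller share of higher calls than all peaks, for example 62.0% and 26.8% lower in Liv_OFF against Lung_OFF.

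Other cell types were read from marker genes with a peak at the start site. Summed over 5 of 5 fibroblast markers, the normalized count was 884.9 to 905.6 in Liv_OFF, 1052 to 1418 in Lung_OFF and 1883 to 2371 in Panc_OFF. Endothelial markers (4 of 4) summed to 131 to 146 in Liv_OFF, 227 to 845.0 in Lung_OFF and 229 to 264 in Panc_OFF. Neuronal markers (3 of 5, Snap25, Syt1 and Tubb3) summed to 659.0 to 745 in Liv_OFF, 1019 to 1352 in Lung_OFF and 943.7 to 1017 in Panc_OFF. The sums of these 3 lists were lowest in the liver, as those of the 4 loci were, but not every member followed its sum. The fibroblast sum was mostly Col1a1 (mean 754 in Liv_OFF), the locus that also carries the hairpin allele, and Lum was higher in Liv_OFF (20.1) than in Lung_OFF (5.97). Among endothelial markers, Tie1 was highest in Liv_OFF (63.2, against 37.0 in Lung_OFF and 57.3 in Panc_OFF). Kdr was at 17.8 in both Liv_OFF and Lung_OFF. Cdh5 was the largest part of the Lung_OFF sum (mean 293, against 33.5 in Liv_OFF and 44.9 in Panc_OFF). Leukocyte markers (2 of 5) summed to 460 to 796 in Liv_OFF and 291 to 419.6 in Lung_OFF, which was mostly Cd68 (615 and 351), while Csf1r was at 12.8 and 24.1. Their part in the differences between organs was not tested.

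Among the matrix genes, Csgalnact1 had 12 of 15 peaks called lower in Liv_OFF than in Lung_OFF and 14 lower than in Panc_OFF, with none higher. Its summed normalized count was 400 and 403 in the Liv_OFF samples, 2032, 1161 and 1684 in Lung_OFF, and 1970, 1831 and 1779 in Panc_OFF. The liver samples were thus below every other sample, and the lungs overlapped the pancreas. With the enzyme's start-site peak (chromosome 8, 68734507 to 68735859, promoter), the counts were 191 and 160.2 in Liv_OFF, 485, 396 and 397 in Lung_OFF, and 577, 581 and 558 in Panc_OFF. This promoter was lower in the liver by a log2 fold change of −1.27 ± 0.16 (SE) against the lungs and −1.70 ± 0.16 against the pancreas (limma adjusted p = 5.16e-05 and 5.53e-06). The smallest p against the lungs belonged to an intronic peak 89919 bp into the gene (68644030 to 68646362), where Liv_OFF had 53.1 and 43.2, Lung_OFF 385, 308 and 365, and Panc_OFF 314, 311 and 313. There the liver was lower by −2.85 ± 0.23 and −2.68 ± 0.23 (limma adjusted p = 6.38e-06 and 3.22e-06). Lungs and pancreas differed by 0.17 ± 0.20 (limma adjusted p = 0.644). The liver difference was larger than at the promoter, but this peak was gained and chosen for its smallest p, which favors a large difference. The Csgalnact1 peak printed above, 7266 bp into the gene (68727569 to 68728129), held few reads, with 6.2 and 4.2 in Liv_OFF, 21.2, 5.4 and 35.3 in Lung_OFF, and 33.3, 39.3 and 33.3 in Panc_OFF. It was lower in the liver by −1.51 ± 0.61 against the lungs (limma adjusted p = 0.052), a call that was lost without any one of Liv_OFF replicates 1 and 2 and Lung_OFF replicates 1 and 3, with values of −1.74 to −0.97. The peak was chosen for its rise, so this difference describes it and is no separate support.

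Ltbp1, the TGF-beta-binding gene, had calls in both directions. Of its 49 peaks, 18 were lower and 5 higher in Liv_OFF than in Lung_OFF, and 27 were lower and 10 higher than in Panc_OFF. The summed normalized count was 8447 and 10240 in Liv_OFF, 11223, 9817 and 10232 in Lung_OFF, and 9380, 9412 and 9626 in Panc_OFF. The liver thus overlapped both other organs, while every Lung_OFF sample was above every Panc_OFF sample. Its start-site peak (chromosome 17, 75004835 to 75006854, promoter) held 762 and 777 in Liv_OFF, 865, 696 and 758 in Lung_OFF and 802, 773 and 750.1 in Panc_OFF. The log2 fold changes there were 0.00 ± 0.12 against the lungs and −0.01 ± 0.12 against the pancreas (limma adjusted p = 0.996 and 0.95).

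An intronic peak 41458 bp downstream (75046647 to 75047406) went the other way. It held 137 and 276 in Liv_OFF, 16.6, 33.7 and 25.0 in Lung_OFF, and 11.1, 12.5 and 15.7 in Panc_OFF. Every liver sample was above every sample of the other organs, with a log2 fold change of 2.96 ± 0.38 against the lungs and 3.80 ± 0.38 against the pancreas (limma adjusted p = 5.44e-05 and 6.87e-06). The other 4 Ltbp1 peaks called higher in the liver than in the lungs lay at −31341, −29126, 49725 and 75932 bp from their nearest start site (negative is upstream), with log2 fold changes of 1.73, 1.17, 1.60 and 0.97. They were picked out after their values were seen.

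Of the channel genes, Piezo2 had 22 of 25 peaks called lower in Liv_OFF than in Lung_OFF, 22 lower than in Panc_OFF, and none higher in either comparison. Its summed count was 521 and 379 in Liv_OFF, 3535, 1477 and 4314 in Lung_OFF, and 3792, 3739 and 3405 in Panc_OFF. Lung_OFF replicate 2 was thus the lowest lung sample but above both liver samples. At the Piezo2 promoter (chromosome 18, 63385958 to 63387458), Liv_OFF held 92.6 and 57.1, Lung_OFF 287, 109.8 and 482, and Panc_OFF 548, 439 and 430. The liver was lower by −1.75 ± 0.45 against the lungs and −2.67 ± 0.45 against the pancreas (limma adjusted p = 0.0052 and 0.000189).

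The Piezo2 peak with the largest rise on restoration lay between genes, at −76063 bp from the start site (63462360 to 63464134). It held 54.3 in each Liv_OFF sample, 1036, 374 and 1056 in Lung_OFF, and 757, 704 and 642 in Panc_OFF. The difference was −3.75 ± 0.32 against the lungs and −3.66 ± 0.32 against the pancreas (limma adjusted p = 9.06e-06 and 4.09e-06), against 0.09 ± 0.29 between lungs and pancreas (limma adjusted p = 0.881). A choice for the largest rise favors low OFF counts, so these values describe the peak and are no separate support. A peak at −19902 bp (63406054 to 63408118) gave the smallest p against the lungs, with −3.02 ± 0.24 (limma adjusted p = 6.69e-06).

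Kcna4 is a short gene, and 16 of its 17 peaks were intergenic. Of the 17, 14 were called lower in Liv_OFF than in Lung_OFF and 15 lower than in Panc_OFF, and none higher. The locus summed to 231 and 266 in Liv_OFF, 1332, 1028 and 1000 in Lung_OFF, and 1606, 1453 and 1089 in Panc_OFF. Its promoter peak (chromosome 2, 107290398 to 107290751) held 22.2 and 9.8 in Liv_OFF, 33.1, 47.8 and 47.4 in Lung_OFF, and 104.2, 129 and 98.2 in Panc_OFF, an order in which no neighboring groups overlapped. The liver was lower by −1.45 ± 0.43 against the lungs, and the lungs were lower by −1.36 ± 0.39 against the pancreas (limma adjusted p = 0.0119 and 0.0311). Without Liv_OFF replicate 2 the first of these was −0.90 and no longer called. At 36718 bp downstream (107326976 to 107327739), the difference between liver and lungs reached −3.69 ± 0.34 (limma adjusted p = 9.06e-06), with 4.9 and 4.2 in Liv_OFF and 79.2, 59.8 and 75.0 in Lung_OFF. With liver counts this near the floor, the size of the fold is uncertain. Panc_OFF held 120, 75.0 and 89.8 there. The Kcna4 peak printed above, at 21693 bp (107312199 to 107312467), held 1.2 and 1.4 in Liv_OFF, 8.3, 7.6 and 4.3 in Lung_OFF, and 18.8, 9.8 and 18.5 in Panc_OFF, counts so low in the liver that no fold is given.

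Among the vesicle genes, Synpr was the locus where lungs and pancreas differed most. Its summed count was 110 and 79 in Liv_OFF, 408, 297 and 452 in Panc_OFF, and 1259, 764 and 1072 in Lung_OFF, with no overlap between organs. Of its 10 peaks, 8 were called lower in Liv_OFF than in Lung_OFF, 9 lower in Liv_OFF than in Panc_OFF, and 8 higher in Lung_OFF than in Panc_OFF. An intronic peak 32875 bp from an internal start site (chromosome 14, 13486446 to 13487363) held 3.7 and 2.8 in Liv_OFF, 9.4, 17.9 and 13.0 in Panc_OFF, and 97.6, 65.2 and 62.0 in Lung_OFF. The liver was lower than the lungs by −4.14 ± 0.51 and the lungs were higher than the pancreas by 2.41 ± 0.46 (limma adjusted p = 4.24e-05 and 0.00343). This is the Synpr peak printed above, chosen for its rise, so these values describe it and are no separate support. Liver counts there were near the floor, which leaves the size of the fold uncertain. At 99888 bp (13553475 to 13554361), near the edge of the assignment distance, Liv_OFF held 18.5 and 13.9 and Lung_OFF 294, 199 and 224 (−3.79 ± 0.37, limma adjusted p = 1.18e-05). No Synpr peak lay in a promoter, the nearest lying in an intron 5483 bp from the same internal start site (13459337 to 13459688). That peak held 6.2 and 1.4 in Liv_OFF, 34.1, 23.9 and 26.7 in Lung_OFF, and 11.1, 6.3 and 16.7 in Panc_OFF, lower in the liver than in the lungs by −2.80 ± 0.56 (limma adjusted p = 0.000975). Its liver counts were also near the floor, so the size of this fold is uncertain.

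Sytl2 had 6 of 13 peaks called lower in Liv_OFF than in Lung_OFF and 2 higher, and 7 lower and 2 higher than in Panc_OFF. The summed count was 929 and 947 in Liv_OFF, 1140, 1160 and 1176 in Lung_OFF, and 1249, 1324 and 1397 in Panc_OFF, again without overlap. Its peak nearest a start site (chromosome 7, 90355224 to 90355987, intron, 6906 bp) held 12.3 and 18.1 in Liv_OFF, 144.5, 60.9 and 86.2 in Lung_OFF, and 122, 110.8 and 118 in Panc_OFF. The liver was lower by −2.53 ± 0.34 against the lungs and −2.88 ± 0.34 against the pancreas (limma adjusted p = 7.38e-05 and 1.62e-05). The intronic Sytl2 peak printed above, at −40742 bp (90307423 to 90308493), held 25.9 and 18.1 in Liv_OFF, 153, 39.1 and 108 in Lung_OFF, and 141, 201.0 and 179 in Panc_OFF. It was lower in the liver by −1.95 ± 0.45 against the lungs and −2.93 ± 0.45 against the pancreas (limma adjusted p = 0.00242 and 8.63e-05). Since it was chosen for its rise, these values describe it and are no separate support. The 2 Sytl2 peaks higher in the liver, named after their values were seen, lay at −37309 and −36023 bp, with log2 fold changes of 2.17 and 1.30 against the lungs.

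Levels of neighboring peaks were examined beside each locus, as the median log2 fold change of peaks outside the 6 loci within 5 Mb. The loci were chosen for rising, which favors low OFF counts, and the neighbors were not. A gap between them is thus not separate from that choice. For Csgalnact1, Synpr, Piezo2, Kcna4 and Ltbp1 the neighbors differed by −0.17 to 0.15 between Liv_OFF and Lung_OFF, where the loci's own medians were −1.51, −3.15, −1.86, −1.70 and −0.52. Around Sytl2 the 314 neighbors were themselves lower in the liver, by −0.49 against Lung_OFF and −1.03 against Panc_OFF, beside −0.79 and −1.22 for the Sytl2 peaks. Across samples these neighbors deviated from their mean by −0.70 (Liv_ON replicate 2) to 0.59 (Panc_ON replicate 2). The part of this regional level in the Sytl2 differences was not tested.

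**Figure D3:**
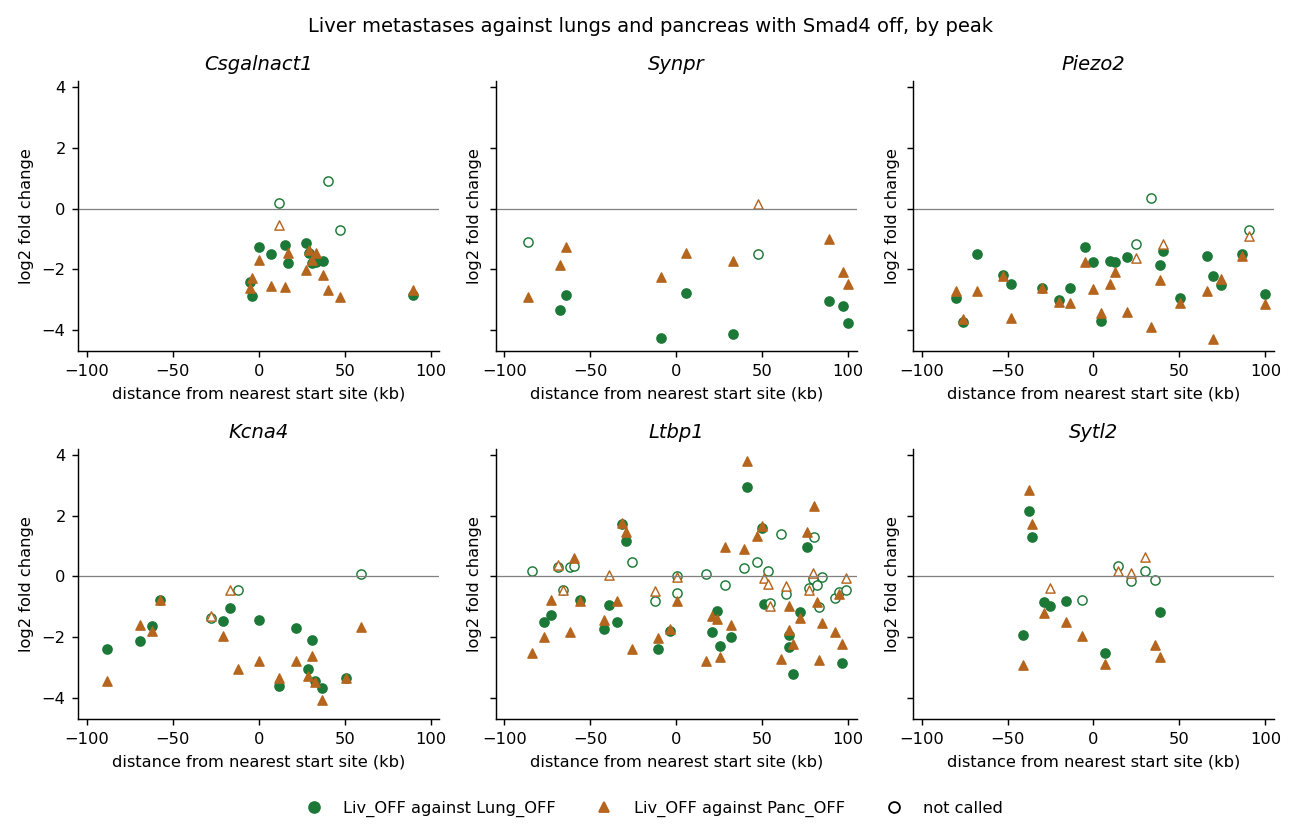
Log2 fold change of each peak (vertical axis) in Liv_OFF against Lung_OFF (green circles) and against Panc_OFF (brown triangles), by the distance of its midpoint from the nearest start site of the gene in kb (horizontal axis, positive downstream). Filled symbols were called. At Csgalnact1, Synpr, Piezo2 and Kcna4 no called peak is above 0, while Ltbp1 and Sytl2 have called peaks on both sides.

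With Smad4 restored, Csgalnact1, Piezo2, Kcna4 and Sytl2 had lower sums in the liver than in either other organ, while the mean sum of Ltbp1 in the liver was 12133, beside 11668 in Lung_ON and 12082 in Panc_ON, and the Synpr samples of liver and pancreas overlapped. Between Liv_ON and Lung_ON, 53 of the 129 peaks were called lower in the liver (41.1%, all peaks 18.2%) and 9 higher (6.98%, all peaks 17.6%), with a median log2 fold change of −0.78. Against Panc_ON, 78 were lower (60.5%, all peaks 32.2%) and 11 higher (8.53%, all peaks 27.1%), with a median of −1.36. Lung_ON was higher than Panc_ON at 9 peaks (6.98%, all peaks 12.8%) and lower at 24 (18.6%, all peaks 14.9%). The comparison of Liv_ON with Lung_ON rested on 1 sample: without Liv_ON replicate 2 the lower calls fell from 53 to 12. In Liv_ON against Panc_ON they fell from 78 to 49 without it.

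In these ON samples Piezo2 summed to 2162 and 1317 in Liv_ON, 4054, 3985 and 3233 in Lung_ON, and 5432, 6375 and 6273 in Panc_ON, so that no organs overlapped. At its promoter the liver and lungs differed by −0.33 ± 0.45 (limma adjusted p = 0.615), with 295 and 204 in Liv_ON and 378.5, 419 and 184 in Lung_ON. Csgalnact1 summed to 1086 and 680 in Liv_ON and 2365, 2578 and 2094 in Lung_ON. Its promoter was lower in the liver by −0.96 ± 0.16 (limma adjusted p = 0.000616). Synpr summed to 566 and 265 in Liv_ON, 464, 772 and 560 in Panc_ON, and 1294, 826 and 611 in Lung_ON, and only 2 of its 10 peaks were called lower in Liv_ON than in Panc_ON. The liver-open Ltbp1 intronic peak at 41458 bp remained higher in the liver (3.08 ± 0.38 against Lung_ON, limma adjusted p = 8.64e-05), with 256 and 458.0 in Liv_ON and 41.6, 46.0 and 32.7 in Lung_ON.

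Taken by organ, the rise on restoration that selected the loci was unevenly spread. Relative to OFF, the liver sum in ON was 4.39 times as large at Synpr, 3.87 at Piezo2, 2.79 at Kcna4, 2.2 at Csgalnact1, 1.3 at Ltbp1 and 1.12 at Sytl2. In the pancreas these ratios were between 1.27 and 1.65. In the lungs they were 1.44 at Csgalnact1, 1.43 at Sytl2, 1.21 at Piezo2, 1.14 at Kcna4, 1.12 at Ltbp1 and 0.88 at Synpr. Liv_ON replicate 1 was above replicate 2 at Csgalnact1, Synpr, Piezo2, Kcna4 and Sytl2 and below it at Ltbp1. Past the same thresholds within 1 organ stood 15 of the 129 peaks in the liver (all peaks 0.462%), 7 in the pancreas (all peaks 0.364%) and 1 in the lungs (all peaks 0.00146%). The liver count was 0 without Liv_ON replicate 1 and 29 without replicate 2, and the pancreas count ranged from 0 to 14 when a sample was left out.

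The single lung peak, named here after its values were seen, lay in a Sytl2 intron at −15868 bp (90332506 to 90333157). It held 107.8, 111.2 and 103 in Lung_ON and 33.1, 23.9 and 30.2 in Lung_OFF. In the pancreas it held 57.8, 60.7 and 66.7 in ON and 46.1, 50.9 and 47.2 in OFF. The largest liver rise among the named peaks was at the Kcna4 peak 36718 bp downstream, from 4.9 and 4.2 in Liv_OFF to 62.9 and 29.5 in Liv_ON. At the Piezo2 peak at −76063 bp the counts rose from 54.3 in both Liv_OFF samples to 499.7 and 302 in Liv_ON, and from 757, 704 and 642 in Panc_OFF to 1252, 1419 and 1630 in Panc_ON. In Lung_ON this Piezo2 peak held 1085, 974 and 914, overlapping the Lung_OFF samples.

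**Figure D4:**
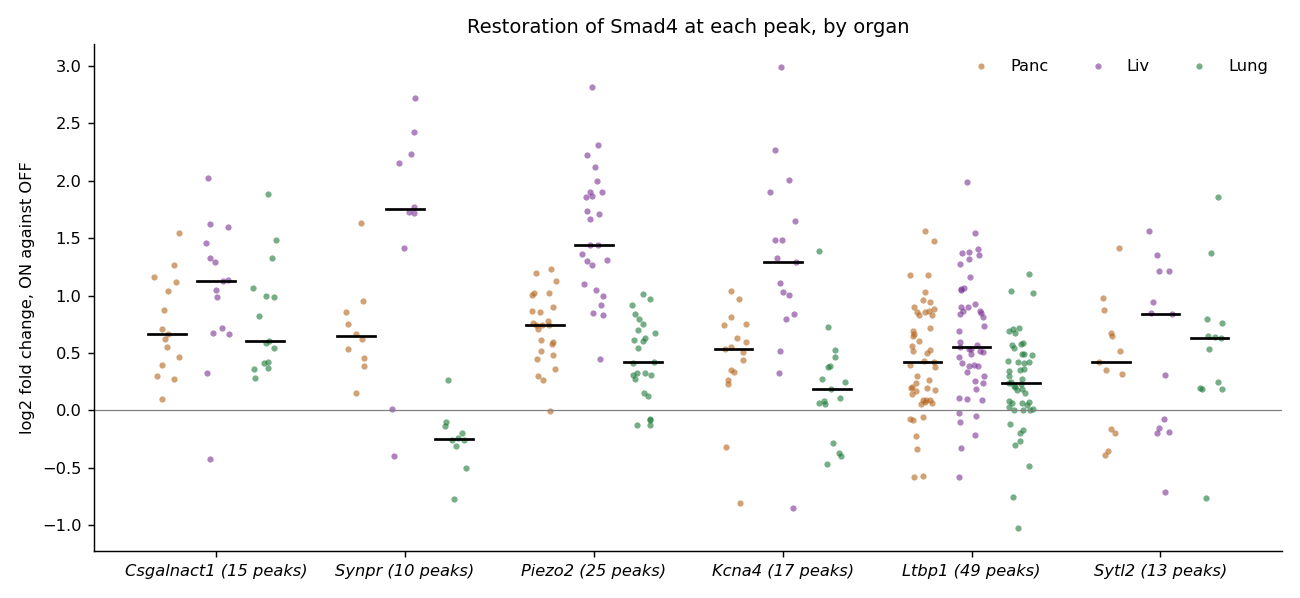
Log2 fold change of each peak in ON against OFF samples (vertical axis) within the pancreas (brown), liver (purple) and lungs (green), by locus. Each point is 1 peak and the black bar is the median. The medians in the liver were 1.75 at Synpr, 1.44 at Piezo2 and 1.29 at Kcna4, and in the lungs −0.25, 0.42 and 0.19. These values selected the loci and carry no test.

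Whether the response differed between organs was asked as a difference of differences. These differences are built from the same folds whose mean selected the loci, so shares of the 129 peaks below are a description and no support for a difference. The median difference of log2 fold changes, liver minus lungs, was 2.00 at Synpr, 1.13 at Piezo2, 0.95 at Kcna4, 0.38 at Ltbp1, 0.26 at Csgalnact1 and 0.08 at Sytl2. None of the 129 peaks was called in any of the 3 interactions by limma without a block or by edgeR, where 0% of all peaks were called by limma in liver minus lungs, 0% in liver minus pancreas and 0% in lungs minus pancreas. Between liver and lungs, 31 peaks reached an unadjusted p under 0.05 (5.25% of all peaks did so), beside 14 (3.95%) between liver and pancreas and 10 (11.0%) between lungs and pancreas. DESeq2 called 6, 0 and 1 of the 129 peaks in the same order, and 0.0351%, 0.0183% and 1.65% of all peaks. Without Lung_OFF replicate 2 limma called 2, 0 and 2, and with a replicate block for the lung samples it called 1 peak in lungs minus pancreas. That block also moved the counts past the thresholds within 1 organ from 7 to 14 in the pancreas and from 15 to 23 in the liver.

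Relatives of the 6 genes were examined in lists of their gene families and pathways. In chondroitin and dermatan sulfate synthesis (17 genes, 136 peaks), 49 peaks were called lower (36.0%, all peaks 26.8%) and 15 higher (11.0%, all peaks 22.9%) in Liv_OFF than in Lung_OFF. Start-site peaks were called at Chst3 (−0.82, limma adjusted p = 0.0599) and Chst15 (0.74, limma adjusted p = 0.0147), both sulfotransferases. Potassium channels of the Kcna family and their beta subunits (9 of 10 genes with peaks, 49 peaks) had 23 lower (46.9%) and 4 higher (8.16%), with the peaks nearest the start sites of Kcna1 (−2.18), Kcnab1 (−2.34) and Kcnab2 (−0.62) called lower. Latent TGF-beta complex genes and fibrillins (9 genes, 79 peaks) had 24 lower (30.4%, near the share of all peaks) and 8 higher (10.1%), and the Fbn1 start-site peak, at the gene of fibrillin-1, was lower by −1.97 (limma adjusted p = 0.00355).

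Counts in the other families are read against the same shares of all peaks. Synaptotagmin-like proteins and RAB27 partners (10 genes, 77 peaks) had 26 peaks higher (33.8%) and 13 lower (16.9%), and start-site peaks were called higher at Sytl1 (2.77), Exph5 (1.61), Sytl3 (0.89) and Rab27a (0.83), as was the only Sytl4 peak (0.88), 34179 bp from its start site, a direction opposite to that of the Sytl2 peak nearest its start site. The synaptophysin family (5 of 7 genes with peaks, 23 peaks) had 7 higher (30.4%) and 3 lower (13.0%), a difference of few peaks from the share of all peaks, with the peak nearest the Syngr1 start site called higher (1.04). Piezo1 had 4 of 7 peaks higher and 1 lower. Restoration averaged over organs raised 14 of the 136 chondroitin peaks, 8 of them at Chst11 (named after its values were seen), and 4 of 79, 2 of 49, 4 of 77, 0 of 23 and 0 of 7 peaks in the latent TGF-beta, Kcna, synaptotagmin-like, synaptophysin and Piezo1 lists, beside 3.61% of all peaks. It lowered 2 of the chondroitin peaks and 1, 0, 4, 2 and 1 peaks in the other lists in that order. Of all 136630 peaks it lowered 4105.

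Sequence was not used in choosing the loci. Position was used in part, since their peaks had to lie within 100 kb of a start site. All peaks also include those farther away, so the shares by position are not on an equal footing. Of the 129 peaks, 93 were intronic (72.1%, all peaks 42.2%), 30 intergenic (23.3%, all peaks 45.6%), 5 in promoters within 1000 bp of a start site (3.88%, all peaks 9.76%) and 1 exonic. The loci differed, with 44 of 49 Ltbp1 peaks intronic and 16 of 17 Kcna4 peaks intergenic. Gained peaks were wider (median 688 bp) and held more reads (median of the mean count 93.2) than the 75 peaks not gained (518 bp and 44.4), and all peaks had 588 bp and 57.5. In the central 300 bases, TGANTCA, the AP-1 consensus, was found in 39.5% of the 129 peaks and 34.1% of all peaks. Split by the selecting change, it was in 29 of 54 gained peaks (53.7%) and 22 of 75 not gained (29.3%). TGTGGTT (RUNX) was found in 17.8% of the 129 peaks and 10.9% of all peaks, GGAATG (TEAD) in 19.4% and 20.1%, and TGTTTAC (FOX) in 4.65% and 6.15%. CCNCNCCC (KLF) was in 21.7% and 28.4%. CAGACA, the shorter SMAD site, was in 23.3% of the 129 peaks and 26.1% of all peaks. GTCTAGAC, the palindromic SMAD site, and CCGGAAGT (ETS) were in none of the 129, and in 0.327% and 0.684% of all peaks. GTCTAGAC does not contain CAGACA, both strands were searched, and a match is a description of the letters and not of binding.

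**Figure D5:**
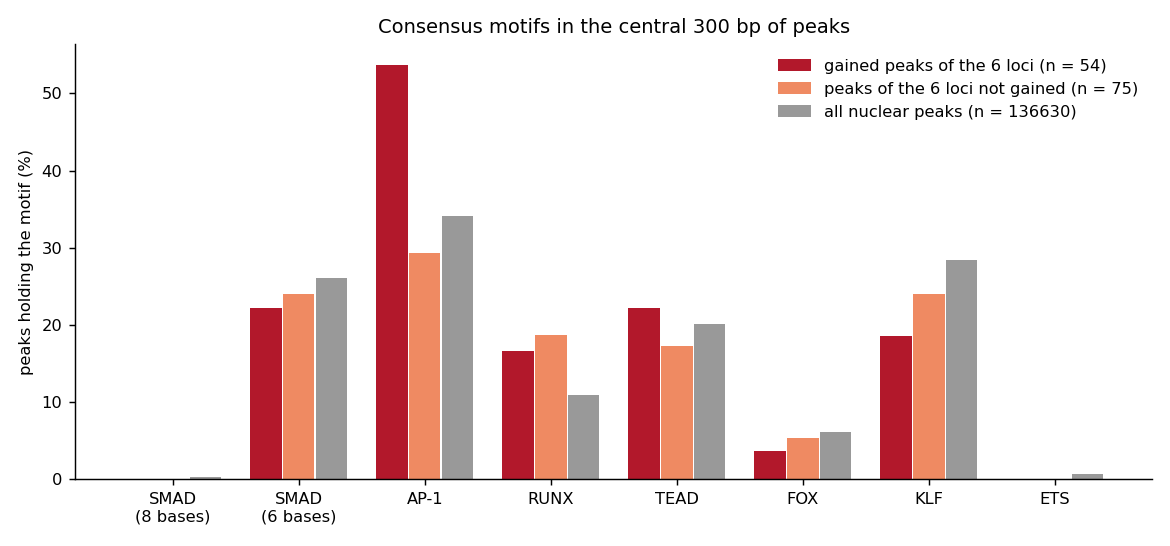
Share of peaks, in percent, that hold each consensus motif on either strand of the central 300 bp, for the 54 gained and 75 other peaks of the 6 loci and all 136630 peaks. The AP-1 bars differ most between gained and other peaks of the loci, 53.7% and 29.3%.

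Across the 16 samples, the log2 summed counts of Csgalnact1, Piezo2 and Kcna4 followed each other with Pearson correlations of 0.95 to 0.97, and those of Ltbp1 with the other loci were 0.38 to 0.46. Among 7780 genes with 5 or more peaks, the most alike in pattern were Rbfox1 (0.99) and Lgr6 (0.99) to Csgalnact1, Gpc1 (0.98) and Gm2115 (0.97) to Piezo2, Csgalnact1 (0.96) and Rbfox1 (0.96) to Kcna4, Asic2 (0.90) and Fam124b (0.89) to Synpr, Rab11fip2 (0.92) and Sdccag8 (0.92) to Sytl2, and Apol9b (0.91) and Casq2 (0.87) to Ltbp1. These are descriptions without a test, since the samples fall into organs and all genes share the same libraries.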

How the data were processed

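ATAC-seq was analyzed in 16 samples from 6 groups, which were taken with their replicate numbers from the sample titles. The deposited values are a signal, the normalized count of reads per peak. The authors trimmed reads (Trim Galore, cutadapt), aligned them to mm10 (Bowtie2), called peaks (MACS2), merged peaks within a fixed distance into an atlas over all samples, counted reads (featureCounts) and divided by DESeq2 size factors. Transposase shifting and duplicate removal are not given in the sources used here. This scaling holds the typical peak constant between samples. Peak names count from 0, since the shortest peaks (2332 of them) have an end minus start of exactly 200, and coordinates are given 1-based.

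The 6 loci, their gene lists and the markers were chosen with earlier results of these data known. Values were whole multiples of the worth of 1 read in 100% of cases (tolerance 0.02). The mitochondrial row, 1.43% to 3.56% of reads, was left out, and no filter on low values was applied. The main test was limma 3.58.1 (R 4.3.3, trend and robust) on log2(normalized count + 1) with 6 group means. On this scale the change of a peak with few reads is understated. Benjamini-Hochberg adjustment ran over all 136630 peaks. Peaks were called at an adjusted p of 0.1 or below when the log2 fold change was 0.58 or more in either direction. On the recovered reads, the quasi-likelihood test of edgeR 4.0.16 called 28045 peaks higher and 38786 lower in Liv_OFF than in Lung_OFF, beside 31293 and 36598 by limma. Data were also simulated with 200 of 136630 peaks changed, drawn from those with a mean count of at least 20. Every peak was given the same spread beyond that of counting, and recovery was not tried at lower counts. The test recovered 100% of the larger changes and 44% of the smaller ones, with the right sign. It made 55 false calls, a share well above its nominal rate. Far more peaks were called in the real data, so that share may not carry over to them. Python 3.11.15, pandas 2.3.3 and matplotlib 3.10.9 were used.

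All 6 genes are named, each with the peak nearest a start site, the peak of largest average rise on restoration and the peak of smallest p between Liv_OFF and Lung_OFF. One allele of the model and the sequence and position of 1 peak are not reported here. Family genes are named where the peak nearest a start site was called in that comparison, and 2 genes of most similar pattern per locus. Promoter means within 1000 bp of a start site.

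Groups share replicate numbers. Deviations from group means correlated by 0.491, 0.124 and 0.214 between same-numbered lung samples, and the correlation within replicate blocks over all organs was 0.074. Samples of different number were not compared, so these values do not show that the lung samples are pairs. The labels do not pair them either. The printed values come from the fit without pairing, and the block is an alternative. The pancreas gave −0.33, 0.027 and −0.33 and the liver 0.083, which gives no sign of pairs there. Alternatives were a pseudocount of 10, a mean count of at least 20, TMM factors, quantile normalization, edgeR, DESeq2 1.42.0, stricter thresholds, the replicate block, leaving out each sample, and all peaks in or within 100 kb of the gene bodies.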

Additional observations from a re-analysis of the deposited data

How the results depend on the processing

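In the 6 organ comparisons more peaks were called lower than higher under every alternative run, except Lung_OFF against Panc_OFF without Lung_OFF replicate 2 (15 higher, 14 lower). Leaving out 1 sample gave 67 to 92 called peaks in Liv_OFF against Lung_OFF, 93 to 108 in Liv_OFF against Panc_OFF, 20 to 38 in Lung_OFF against Panc_OFF, 15 to 63 in Liv_ON against Lung_ON, 59 to 93 in Liv_ON against Panc_ON and 21 to 36 in Lung_ON against Panc_ON. Counting all 224 peaks in or near the gene bodies, which adds peaks by construction, gave 147, 181, 52, 107, 160 and 54 in that order. Thresholds of 1 and 0.05 gave 41 in Liv_ON against Lung_ON and 20 in Lung_ON against Panc_ON. For interactions, leaving out a sample gave 0 to 2 calls in liver minus lungs and in lungs minus pancreas (2 each without Lung_OFF replicate 2), and DESeq2 gave 6 and 1.

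The counts that selected the loci moved more. Averaged over organs they were 27 to 65 with a sample left out (27 without Liv_ON replicate 1) and 17 at thresholds of 1 and 0.05. In the pancreas, liver and lungs they were 0 to 14, 0 to 29 and 0 to 1 with a sample left out, 16, 29 and 2 by DESeq2, and 0, 8 and 0 at the stricter thresholds. Quantile normalization gave 13 in the pancreas and 9 in the liver, and the gene bodies gave 11 in the pancreas. With the replicate block in every organ these counts were 11, 8 and 0, and with a replicate block for lung samples alone 14 in the pancreas, 23 in the liver and 1 call in lungs minus pancreas. The block moved no count of calls between organs by over 1.5 times.

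At the named peaks only Liv_OFF against Lung_OFF was repeated. There 383 of 394 repeats kept direction and side of the threshold, 7 lost a call and 1 gained one. The Sytl2 peak nearest a start site was also that of smallest p and was counted in each role. The sign turned at 2 uncalled Ltbp1 peaks, whose log2 fold change with a sample left out ran from −0.074 to 0.083 at the start site (0.014 without Liv_OFF replicate 1) and from −1.55 to 0.39 at the peak of largest rise. The liver groups hold 2 samples each, which limits the precision of their values. The causes of these shifts were not tested.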
